A study of Mus musculus with 37 samples.

Results

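The interleukin 1, Tnf and inflammasome genes described here were 8 of the 23947 genes measured in 37 single cells: Nlrp3, Pycard, Casp1, Il1b, Il18, Il1a, Il1rn and Tnf. They were chosen by symbol, and each matched 1 gene of the deposited table. The cells, labelled adipose tissue macrophages, were sorted from the epididymal fat (eWAT) of C57BL/6J males fed a high-fat diet with 60% of its energy from fat, after 30 min of collagenase digestion. All carried the same labels, with no other diet, genotype or treatment to compare. The sources used here tie no cell to an animal and give neither the age of the mice nor the gate of the sort. The cells therefore counted as 1 sample, no p-value was made, and each cell is called by the number its label gives it, 0 to 36.

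Interleukin 1 beta and interleukin 18 are made as inactive precursors. Cells first transcribe Il1b after a signal such as NF-kB activation. An inflammasome then cleaves both precursors: a sensor such as Nlrp3 gathers the adaptor ASC, encoded by Pycard, which recruits the protease caspase-1. Tumour necrosis factor needs no caspase and is shed from the cell surface by the protease Adam17. In fat of obese mice, macrophages are a known source of these cytokines, which are studied for their part in insulin resistance.

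Values are FPKM, which are scaled to transcript length, so that levels of different genes can be set side by side. A value of at least 1 FPKM was called detection. All 8 genes were detected in at least 1 cell, as were 41.7% of the genes in the table, and none was listed at 0 in every cell, as 51.6% of genes were. Under that rule 5 of the 8 genes (62.5%) were detected in at least 5 cells, where 19.6% of all genes in the table were, and the 8 genes were detected in a median of 7.5 cells. Most of a gene's summed FPKM came from very few cells. The highest cell alone held a median of 46.8% of it over the 8 genes, against 65.3% over all genes detected in at least 1 cell. A gene at exactly 0 is called listed at 0, since Gapdh and Rpl3, which most cells use, were also at 0 in some cells.

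The 37 cells had 1224 to 3204 genes detected, with a median of 1824. FPKM summed over all genes ran from 225528 to 1.84e+06 per cell. The FPKM that 1 fragment was worth, estimated from the spacing of low values, differed up to 120-fold between cells. In cells 2, 15, 17, 24 and 26 it was more than 4 times the median, and these are called shallow. All 37 cells held at least 3 of 17 macrophage markers. Cells 7 and 27 also held 7 of 8 fibroblast markers each, and are called the cells with fibroblast genes (at least 3 markers). Pycard in cell 7, at 16.4 FPKM, was the only one of the 8 genes detected in either. Cells 8, 17, 23, 24, 26 and 28 held 1 fibroblast marker each, which in cell 17 was Dpt at 604.4 FPKM.

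**Figure D1:**
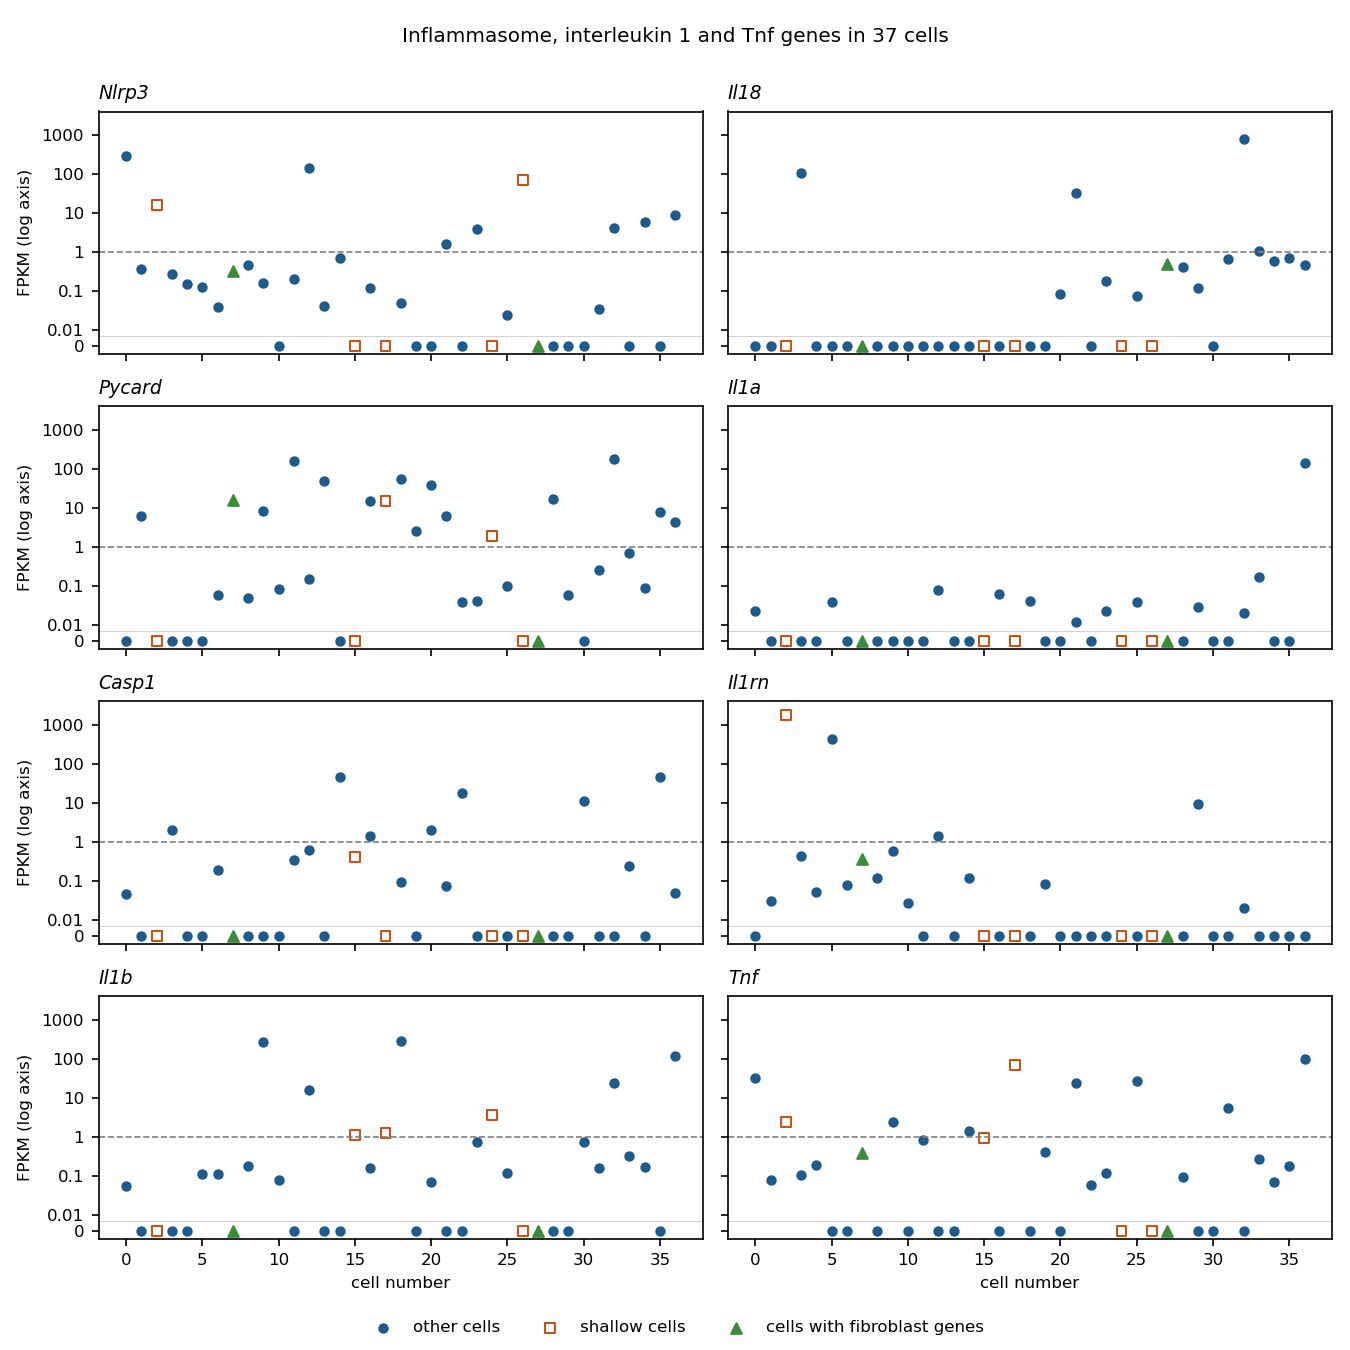
FPKM of the 8 genes (log axis, with 0 drawn below the grey line) against the cell number from the labels, for 37 cells. The dashed line is the 1 FPKM from which a gene was called detected, squares are the 5 shallow cells and triangles the 2 cells with fibroblast genes. Each gene was high in a few cells, low in others and at 0 in 10 to 25.

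Nlrp3, the sensor, was detected in 9 cells (24.3%, exact Clopper-Pearson 95% interval 11.8% to 41.2%). The highest values were 294.9 FPKM in cell 0, 140.4 in cell 12 and 70.5 in cell 26. Cell 2 followed at 16.1 FPKM, and the remaining values were 9.11 FPKM in cell 36, 5.90 in cell 34, 4.21 in cell 32, 3.86 in cell 23 and 1.57 in cell 21. The first 3 cells stood well above the rest. Of the cells without detection, 13 were listed at 0 and 15 lay between 0 and 1 FPKM. The median over all cells was 0.119 FPKM and the mean 14.9 ± 53.7 (SD, n = 37 cells). Cells 0, 12 and 26 together held 92.0% of the summed FPKM.

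Pycard, whose product ASC links sensor to protease, was the gene of the 8 detected in most cells, with 16 (43.2%, 27.1% to 60.5%). Cells 32 and 11 stood above the others at 181.0 and 163.9 FPKM. A middle range held cell 18 at 54.3 FPKM, cell 13 at 50.2 and cell 20 at 39.2, and the other 11 detected cells ran from 1.90 FPKM in cell 24 to 16.7 in cell 28. Its signal was the least concentrated of the 8, with 30.6% of the summed FPKM in the highest cell and 9 cells at 10 FPKM or more. The mean was 15.97 ± 40.3 FPKM (SD, n = 37 cells) and the median 0.154.

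Casp1, the protease, was detected in 7 cells (18.9%, 7.96% to 35.2%) and at lower levels. Cells 35 and 14 had 47.3 and 45.9 FPKM, cell 22 had 17.7 and cell 30 had 11.1. The other detected values were 2.07 FPKM in cell 20, 2.01 in cell 3 and 1.40 in cell 16. It alone of the 8 genes reached 100 FPKM in no cell. The gene was listed at 0 in 21 cells, so its median was 0, and the mean was 3.50 ± 10.97 FPKM (SD, n = 37 cells).

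No cell held detected Nlrp3, Pycard and Casp1 together. A count of 0 among 37 cells sets an approximate upper limit of 8.11%, taken as 3 counts over 37 cells. The limit is on detection of all 3 at 1 FPKM, not on expression. The product of the 3 shares amounts to 0.736 cells. Of the 3 genes, 2 were detected in 6 cells and 1 in 20, while 11 cells had none. Nlrp3 and Casp1 were never detected in the same cell, where the product of their shares is 1.70 cells. That count depended on the threshold: at 0.1 FPKM they met in 5 cells and the 3 genes in 3, and all 3 were above 0 in 7 cells. Those 5 cells all lay among cells 0 to 19, where 13 of the 15 Nlrp3 values between 0 and 1 FPKM fell. In cell 11 the Nlrp3 and Casp1 values were each worth about 1 fragment.

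The cytokine genes followed. Their promoters are shown because Il1b, Il1a and Tnf share a feature that the choice of genes did not use, a TATAAA element (capitals) that begins 31, 32 and 29 bases before the start of the transcript. Each line gives the 120 bases before the start on the gene's strand, from RefSeq on GRCm38.p6; all lie on the minus strand, at chr2:129371140-129371259 for Il1b, chr2:129309973-129310092 for Il1a and chr17:35202008-35202127 for Tnf.
Il1b: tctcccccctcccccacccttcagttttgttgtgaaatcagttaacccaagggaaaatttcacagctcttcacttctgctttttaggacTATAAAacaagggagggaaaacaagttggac
Il1a: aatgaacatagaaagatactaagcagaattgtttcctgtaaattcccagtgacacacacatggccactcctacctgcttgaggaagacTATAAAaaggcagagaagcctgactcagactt
Tnf: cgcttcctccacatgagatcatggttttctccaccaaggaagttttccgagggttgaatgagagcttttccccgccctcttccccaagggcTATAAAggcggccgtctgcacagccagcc
Of the 11 start sites of the 8 genes, these 3 had TATAAA on the gene's strand within 40 bases before the start, as did 2.31% of 32851 promoter sequences in the same table. A match of letters is a description and not a shown binding site.

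Il1b, which encodes interleukin 1 beta, was high in 3 cells: 289.2 FPKM in cell 18, 266.4 in cell 9 and 120.2 in cell 36. Cells 32 and 12 had 23.7 and 15.7 FPKM. In 3 more cells, 24, 17 and 15, the values were 3.74, 1.26 and 1.13 FPKM. The first 3 cells held 93.3% of the summed FPKM, and the mean was 19.6 ± 65.8 (SD, n = 37 cells). These 8 cells made up 21.6% (9.83% to 38.2%). The 3 lowest of them were shallow, and their values were worth about 1 to 2 fragments. Without values worth 2.5 fragments or fewer, Il1b was detected in 5 cells, 13.5%.

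Il18, the gene of interleukin 18, rested largely on 1 cell. Cell 32 had 780.9 FPKM, 84.7% of the sum over cells. Cell 3 had 103.5 FPKM, cell 21 had 33.03 and cell 33 had 1.10. The gene was thus detected in 4 cells (10.8%, 3.03% to 25.4%) and listed at 0 in 23. Cell 32 also had the highest Pycard, together with Il1b and Nlrp3.

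Il1a, which encodes interleukin 1 alpha, a cytokine that is active without cleavage by caspase-1, was detected in a single cell (2.70%, 0.0684% to 14.2%). Cell 36 had 139.5 FPKM, and the next highest value was 0.175 FPKM in cell 33. The gene was listed at 0 in 25 cells. Cell 36 was also the third highest for Il1b and the highest for Tnf.

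Il1rn encodes the receptor antagonist that blocks interleukin 1 signalling, and it reached the highest FPKM of the 8 genes. Cell 2, a shallow cell, had 1796.0 FPKM, and in that cell 1 fragment of this gene was worth 0.719 FPKM. Cell 5 had 433.1 FPKM, cell 29 had 9.43 and cell 12 had 1.44. Those 4 cells (10.8%, 3.03% to 25.4%) shared Il1b or Il1a in 1 case, cell 12. The product of the shares is 0.865 cells for Il1rn with Il1b and 0.108 with Il1a. Pycard, Casp1 and Il18 were detected in none of the 4, where the products are 1.73, 0.757 and 0.432 cells. FPKM summed over all genes was 1.12e+06 in cell 2, 260824 in cell 5 and 368856 in cell 32. The lead of Il1rn in cell 2 over cell 5, and over Il18 in cell 32, was not corrected for these sums. Without shallow cells the highest Il1rn value was that of cell 5.

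Tnf, the gene of tumour necrosis factor, was detected in 9 cells (24.3%, 11.8% to 41.2%). Cell 36 had 101.7 FPKM, cell 17 had 69.8, cell 0 had 32.7, cell 25 had 27.2 and cell 21 had 23.6. The remaining values were 5.38 FPKM in cell 31, 2.47 in cell 2, 2.46 in cell 9 and 1.45 in cell 14. Tnf was spread more evenly over its cells than Il1b, with 37.6% of the sum in the highest cell and 75.5% in the highest 3. The value in cell 2, a shallow cell, was worth about 1 fragment, and 8 cells remained without it.

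Tnf messages are known to be held short-lived by AU-rich elements in the 3′ UTR, which the protein Zfp36 binds. The Tnf site is shown because it set this gene apart in sequence from the other 7. It covers bases 438 to 467 of the 764 bases of the 3′ UTR (GENCODE M21, GRCm38), with overlapping copies of TTATTTATT in capitals.
Tnf AU-rich site: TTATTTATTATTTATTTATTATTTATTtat
The Tnf 3′ UTR held 5 copies of TTATTTATT, 4 of them in this window, and those of the other 7 genes held none. Of 21092 genes with a 3′ UTR, 7.58% held at least 1 copy and 0.199% held 5 or more. The shorter ATTTA, which lies within the longer motif, occurred 8 times in Tnf, 5 in Nlrp3, 4 in Il1b, 3 each in Il1a and Pycard, 1 in Il18 and not in Casp1 or Il1rn, and 65.0% of genes held it. The longest 3′ UTR of each gene was read. Lengths ran from 88 bases in Casp1 to 3004 in Pycard, so these counts are not per length. Zfp36 itself was detected in 36 of 37 cells at a median of 125.0 FPKM, in all 9 cells with Tnf among them. Its Spearman rho with Tnf over the 37 cells was 0.04.

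By mean level the order was Il1rn at 60.6 FPKM, Il18 at 24.9, Il1b at 19.6, Pycard at 15.97, Nlrp3 at 14.9, Tnf at 7.31, Il1a at 3.79 and Casp1 at 3.50. The SD over cells exceeded the mean for each gene, so no neighbours in this order differed beyond their spread. By median the order was another, with Pycard first at 0.154 FPKM, then Nlrp3 at 0.119, Tnf at 0.0926 and Il1b at 0.0787, and the other 4 at 0. A gene with a high mean here was one with a few very high cells. Without the highest cell of each gene the mean was 12.4 FPKM for Il1rn, 12.1 for Il1b, 11.4 for Pycard, 7.07 for Nlrp3, 4.69 for Tnf, 3.93 for Il18, 2.28 for Casp1 and 0.0153 for Il1a, so the order rested on single cells, above all cell 2 for Il1rn and cell 32 for Il18.

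The depth of a cell set what a low value could mean. Low values of a gene mostly fell on whole multiples of what 1 fragment was worth: of those under 6 fragments, 15 of 15 for Il1b and 11 of 11 for Pycard came within 0.25 of a whole number, 12 of 14 for Tnf and 11 of 12 for Nlrp3. For Il1rn this held for 8 of 10 and for Casp1 for 7 of 9. For Il18 it held for 5 of 8 and for Il1a for 4 of 11, so the low values of these 2 genes are less certain in this unit. The smallest value of a gene, relative to the depth of its cell, defined 1 fragment, so 1 value matched by definition. A margin of 0.25 on either side also takes in many values of any spacing. A single Il1b fragment was worth a median of 0.113 FPKM over cells, from 0.0274 in the deepest to 3.30 in the shallowest. In 4 cells 1 such fragment was enough to pass 1 FPKM. Of the 58 detected values of the 8 genes, 5 (8.62%) were worth 2.5 fragments or fewer, against 4.84% over all genes detected in at least 5 cells. They were Il1b in cells 15, 17 and 24, Pycard in cell 24 and Tnf in cell 2. Every value above 10 FPKM was worth more.

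**Figure D2:**
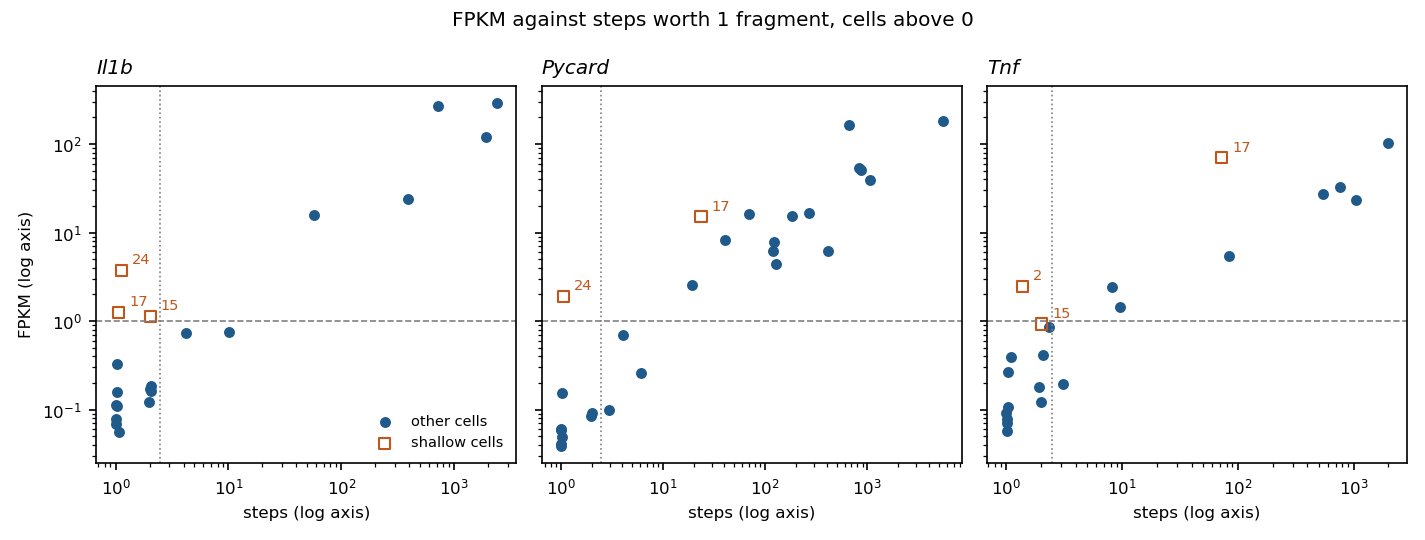
FPKM (log axis) against the number of fragments that the value was worth (steps, log axis) for Il1b, Pycard and Tnf, 1 point for each cell above 0; the dashed line is 1 FPKM and the dotted line 2.5 steps. Shallow cells 15, 17 and 24 passed 1 FPKM for Il1b at about 1 to 2 fragments, while the values above 10 FPKM lay far to the right.

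Low values also followed the cell numbers for some genes. The labels name no batch, and the ranges of cells 0 to 19 and 20 to 36 were taken from an earlier look at these data. Il18 lay between 0 and 1 FPKM in 10 cells, all numbered 20 or above like its highest cell 32. Among cells under 1 FPKM, those were 10 of 14, against 0 of 19 in cells 0 to 19. Il1rn showed the reverse: 10 of 17 such cells in the range of its highest cell 2 were above 0, against 1 of 16 in the other. Nlrp3 had 13 low values in cells 0 to 19 and 2 in cells 20 to 36. Il1b, with 6 and 7, and Tnf, with 7 and 6, were near even.

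The same held widely. Of 1348 genes detected in 1 to 4 cells with a highest value of 100 FPKM or more, 944 (70%) had the larger share of values above 0 in the range of their highest cell. Over those genes, 20.0% of values under 1 FPKM were above 0 in that range and 7.82% in the other. Whether reads of 1 library reached others of its range was not tested. Detection at 1 FPKM left values under 1 FPKM out of the shares of cells, but the rank correlations over all values used them. Il18 in cell 33, in the range of its highest cell, passed the threshold at 1.10 FPKM. At 5 FPKM Il18 was detected in 3 cells.

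Reads of overlapping genes could not be separated, since the sources used here do not say whether counting used strand. Il1bos, antisense to Il1b, and Bco2, beside Il18, were listed at 0 in every cell. Tex12, also at Il18, was detected in cell 21 alone, at 1.11 FPKM, where Il18 was 33.03 FPKM. Gm14023, at Il1a, was detected in cell 10 alone, at 1.35 FPKM, where Il1a was listed at 0.

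Cells differed in how many of the 8 genes they held. None was detected in 5 cells, numbers 4, 6, 8, 10 and 27. A single one was detected in 17 cells (45.9%), 2 in 8 cells and 3 in 4 cells. Cell 36 held 5, namely Il1b, Il1a, Nlrp3, Pycard and Tnf. Cell 32 held Il1b, Il18, Nlrp3 and Pycard, and cell 21 held Il18, Nlrp3, Pycard and Tnf. At least 1 of the cytokines Il1b, Il1a, Il18 and Tnf was detected in 16 cells (43.2%, 27.1% to 60.5%).

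The number of the 8 genes in a cell showed little relation to depth. Its rho over the 37 cells was 0.03 with the value of 1 fragment, -0.01 with the number of genes detected and 0.11 with the FPKM sum. Single genes differed in this: the rho with the number of genes detected was -0.43 for Il1b, so that cells high in Il1b tended to have fewer genes detected. For Il18 the rho with the value of 1 fragment was -0.37. Whether depth had a part in their detection was not tested.

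Among the 28 pairs of these genes, 17 were detected together in more cells than the product of their shares, 11 in fewer, and 8 never met in a cell. Il1b and Pycard met most often, in cells 9, 17, 18, 24, 32 and 36, which are 6 cells where the product is 3.46. In cells 17 and 24, both shallow, the Il1b value was worth about 1 fragment, and without shallow cells 4 cells remained. Nlrp3 and Tnf met in cells 0, 2, 21 and 36, 4 cells where the product is 2.19. Il1b met Nlrp3 in 3 cells and Tnf in 3, with 1.95 each as the product.

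Il1b and its protease gene Casp1 met in no cell, with a product of 1.51, although 6 cells had both at 0.1 FPKM or more. In cells 6, 15 and 33 of these, both values were worth about 1 to 2 fragments, and in cell 16 the Il1b value was worth about 1. Il18 and Casp1 met in cell 3 alone. Il1rn and Pycard also met in none, with a product of 1.73, and in 3 cells at 0.1 FPKM. Counts this small move with 1 or 2 cells, and no pair is called joined or separate from them.

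**Figure D3:**
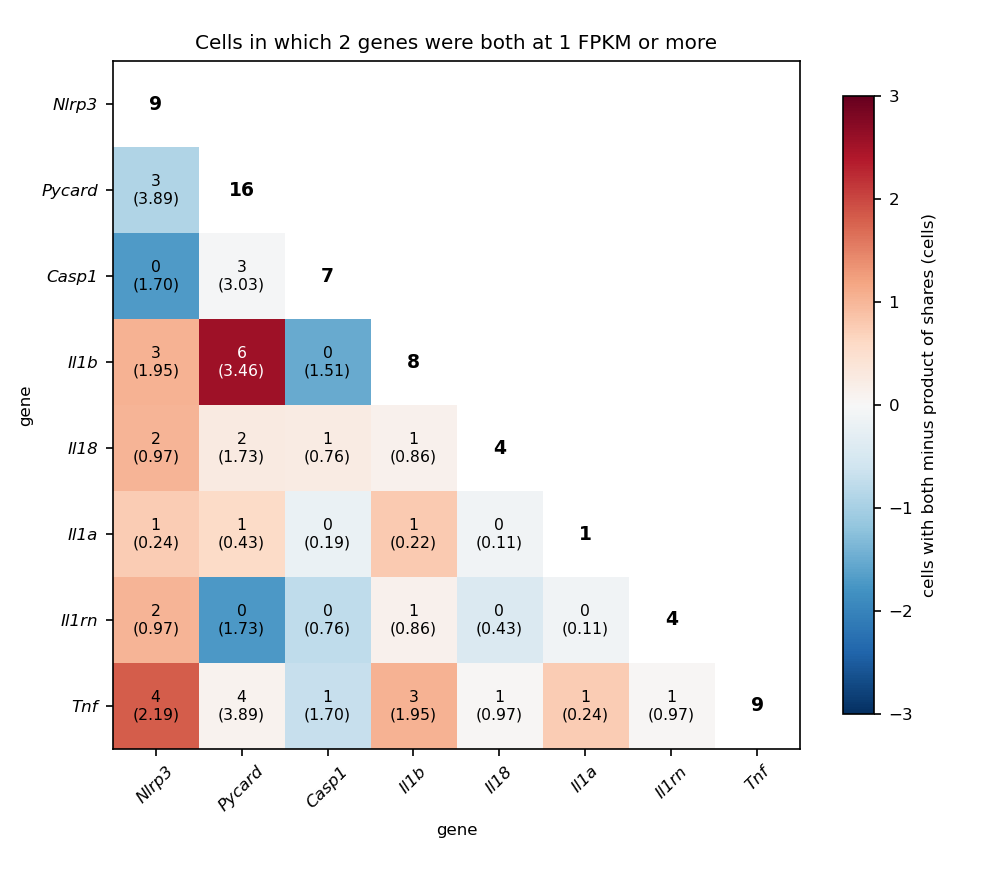
Number of cells in which both genes of a pair were at 1 FPKM or more, with the product of the shares of both genes in parentheses, and the number of cells with each gene in bold on the diagonal; colour is the first number minus the second, in cells. Il1b with Pycard, at 6 cells, exceeded its product of 3.46 most, while Il1b with Casp1 and Nlrp3 with Casp1 met in no cell.

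Ranked over all 37 cells, no pair of the genes ran closely together. The 10 pairs of the 5 genes detected in at least 5 cells had a median rho of -0.01, from -0.12 for Nlrp3 with Pycard to 0.18 for Nlrp3 with Tnf. All pairs of the 4694 such genes had a median of 0.03, with the 5th percentile at -0.26 and the 95th at 0.31. The highest rho of any of the 28 pairs was 0.43 for Il1b with Il1a, which is detected in 1 cell. With values under 1 FPKM set to 0 the median was -0.03, and single pairs moved: Il1b with Pycard to 0.34, Nlrp3 with Tnf to 0.30 and Casp1 with Nlrp3 to -0.27. The cells belong to 1 sample and differ in depth, so these values are descriptions, and weak ones in sparse data.

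Few genes followed any of the 5 closely, with a rho of 0.5 or more over 37 cells. Il1b had 2 such genes of 4693 (0.0426%), Nlrp3 had 2 (0.0426%), Tnf had 4 (0.0852%), Casp1 had 7 (0.149%) and Pycard had 21 (0.447%). At -0.5 or less stood 15 genes for Il1b (0.32%), 12 for Nlrp3 (0.256%), 5 for Casp1 (0.107%), 4 for Tnf (0.0852%) and 0 for Pycard. These shares describe how seldom so high a rho occurred, and the genes depended on the measure. By Pearson's r on log2(FPKM + 1) there were 26 genes for Nlrp3, 23 for Casp1, 20 for Pycard, 15 for Il1b and 6 for Tnf, and they shared with the first counts 2 genes for Nlrp3, 1 for Casp1, 4 for Pycard and 0 for Il1b and Tnf.

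The genes named next for each of the 5 were picked by their rho in these same cells. Counts of cells shared with them follow from that choice and add no support. For Il1b the nearest genes were Csrnp1 (rho 0.53), Wdr45b (0.51), Crem (0.50), H2-Aa (0.49) and Ccr2 (0.49). H2-Aa encodes an MHC class II chain, and Ccr2 the chemokine receptor by which monocytes enter tissue. Ccr2 was detected in 13 cells, of which 6 were among the 8 with Il1b. The 5 cells with the most Il1b, numbers 18, 9, 36, 32 and 12, had 104.8, 108.5, 219.7, 43.6 and 18.1 FPKM of Ccr2. Ccr2 was also high in cells with little or no Il1b: it stood at 145.4 FPKM in cell 21 and 87.2 in cell 35, where Il1b was listed at 0, at 68.6 in cell 25, and at 162.6 in cell 24, where Il1b rested on about 1 fragment. Lmna, the lamin of the nuclear envelope, ran the other way with a rho of -0.61, as did Napg (-0.68) and 2010111I01Rik (-0.63).

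For Casp1 the nearest were Elp5 (rho 0.59), Abcg1 (0.58), Dazap1 (0.53), Myo1f (0.53) and Rnf19b (0.51). Abcg1, which exports cholesterol, was detected in 24 cells and in 6 of the 7 with Casp1. The lowest were 2310001H17Rik (-0.55), Atf4 (-0.54) and Ppp1r15a (-0.54); Atf4 and Ppp1r15a belong to the integrated stress response.

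For Nlrp3 they were Enoph1 (0.51), Dek (0.50), Pdcd11 (0.49), Ifnar1 (0.49) and Puf60 (0.47). Dek, a chromatin protein, was detected in 22 cells, including all 9 with Nlrp3. Ifnar1, a chain of the type I interferon receptor, was detected in 14 cells, including 7 of the 9. Crk (-0.62), Gpr137b (-0.59) and Clic1 (-0.55) ran lowest.

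For Pycard the first was Bcl10 (0.64), an adaptor that carries signals to NF-kB, detected in 16 cells of which 11 also had Pycard. Zfp180 (0.61), St3gal5 (0.60), 1810009A15Rik (0.54) and Ssu72 (0.54) followed. The lowest were Dusp6 (-0.50), a phosphatase of Erk, Wwp1 (-0.48) and Pgap2 (-0.48).

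For Tnf the nearest were Rab5b (0.52), Rac1 (0.52), Slc29a3 (0.52), Myef2 (0.50) and Junb (0.50). Junb, an AP-1 transcription factor, was detected in 36 cells, and its rho was 0.36 without shallow cells. Ifitm2 (-0.58), an interferon-induced membrane protein, Mxi1 (-0.56) and Pnrc1 (-0.53) ran lowest. No gene was among the nearest 5 of more than 1 of the 5 genes.

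Genes around the 8 in their pathways were read from 6 lists, whose counts of genes detected in at least 5 cells stand against the 19.6% of all genes in the table. Upstream, Myd88 and the NF-kB route carry the first signal. Of 17 genes listed, 12 (70.6%) were detected in at least 5 cells, led by the kinases Irak4 in 22 cells, Ikbkb in 17 and Irak1 in 16, the NF-kB subunit gene Nfkb1 in 15 and the adaptor Myd88 in 14. Of 20 targets of that route, 15 (75%) were detected in at least 5 cells. Nfkbia, the NF-kB inhibitor, was detected in all 37 cells at a median of 337.5 FPKM, Cxcl2, a chemokine, in 32 at a median of 193.6, and Nfkbiz, an atypical inhibitor protein of the NF-kB family, in 27 at 11.2. Ccl2, the ligand of Ccr2, was detected in 25 cells. Ccl5 and Nos2 were listed at 0 in every cell. Bcl3, in 7 cells, Nfkbie and Cxcl10, in 3 each, and Ptgs2, in 0, were in fewer cells than Il1b. The rho of Nfkbia was 0.15 with Il1b and 0.22 with Tnf.

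Of 23 other inflammasome sensors and partners, 11 (47.8%) were detected in at least 5 cells, where 19.6% of all genes were. Txnip, which binds Nlrp3, led with 15 cells, followed by the ATP-gated channel P2rx4 with 14, the kinase Nek7, which Nlrp3 needs, with 13, the protease Casp8 with 12 and Gsdmd with 8. Gsdmd forms the membrane pore through which mature interleukin 1 beta leaves. It stood at 435.7 FPKM in cell 10, which held none of the 8 genes, and at 141.0 in cell 18, the highest for Il1b. Casp4, which senses bacterial lipopolysaccharide in the cytosol, was detected in 5 cells, at 279.2 FPKM in cell 19, 206.2 in cell 9 and 84.7 in cell 15. P2rx7, the channel through which ATP triggers Nlrp3, was detected in 6 cells, at 501.2 FPKM in cell 17 and under 10 in the other 5. Among the other sensors, Naip2 was detected in 7 cells, at 134.4 FPKM in cell 21, Naip6 and Aim2 in 5 each, Nlrp1b in 4, Naip5 in 3, at 557.2 FPKM in cell 24 and 121.2 in cell 36, Nlrp1a in 2 and Nlrc4 in 1. Nlrp6, Nlrp10, Nlrp12 and Naip1 were listed at 0 in every cell.

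Of the 15 other interleukin 1 family ligands, receptors and decoys, 0 were detected in at least 5 cells, against 19.6% of all genes. Il1r1, the signalling receptor, was detected in cell 7, one of the 2 with fibroblast genes, at 127.4 FPKM, and in cell 30 at 53.0. Il1rap, its partner chain, was detected in cells 7 and 15, Il1rl1, the receptor of interleukin 33, in cell 19 at 73.9 FPKM, and Il18r1 and Il18bp in 1 cell each. The genes listed at 0 in every cell were 9, namely Il1r2, Il1rl2, Sigirr, Il18rap, Il1f5, Il1f6, Il1f8, Il1f9 and Il1f10.

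Genes of Tnf release and response were detected in at least 5 cells for 7 of 13 (53.8%), against 19.6% of all genes. The sheddase Adam17 was detected in 16 cells and Rhbdf2, which escorts it, in 8. Both receptors were found, Tnfrsf1b in 15 cells and Tnfrsf1a in 12. The kinase Ripk1 followed in 13 and the ubiquitin ligase Birc3 in 12. Lta and Ltb, the lymphotoxin neighbours of Tnf in the genome, were listed at 0 in every cell. None of the 48 pathway genes detected in at least 5 cells reached a rho of 0.5 with any of the 5 genes. The highest was Cxcl2 with Tnf at 0.43, then Bcl3 with Il1b at 0.42, and the lowest Txnip with Nlrp3 at -0.45.

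**Figure D4:**
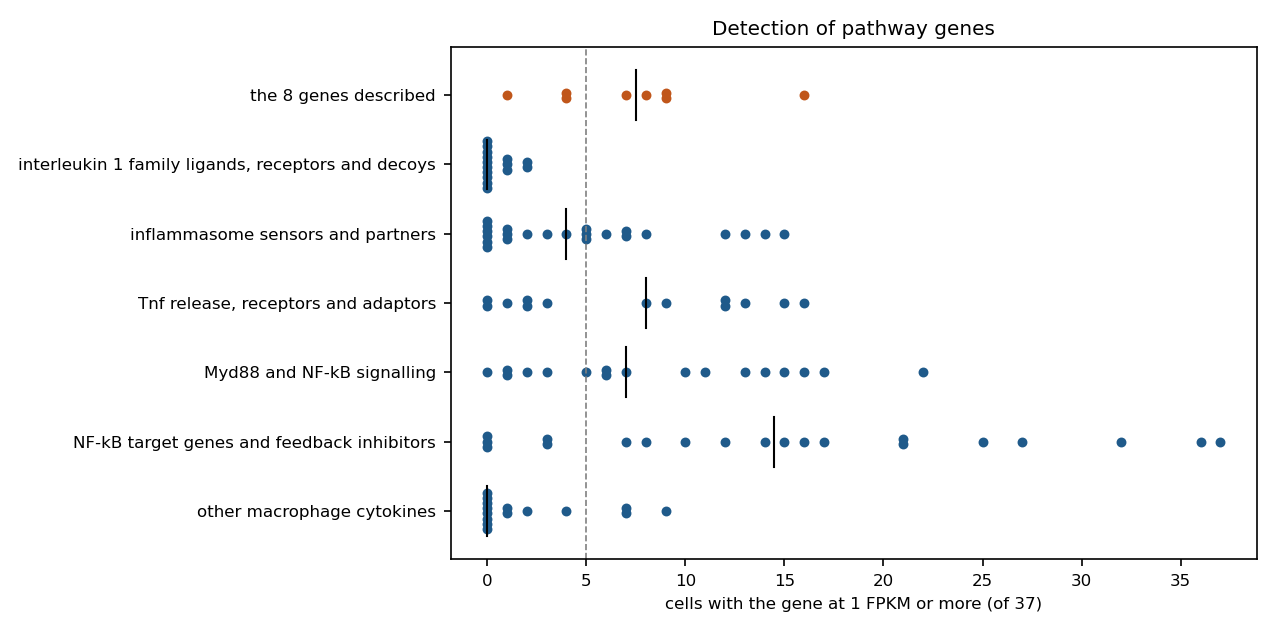
Number of cells, of 37, with each gene at 1 FPKM or more, for the 8 genes (top line) and the 6 pathway lists; each point is a gene, the black bar the median of the list and the dashed line 5 cells. The 8 genes had a median of 7.5 cells, the NF-kB target genes 14.5 and the other interleukin 1 family genes 0.

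Markers of other cells that make these cytokines were read beside them. Neutrophils are a known source of Il1b and Il1rn. Of 12 neutrophil markers measured, 3 were detected, each in a single cell: S100a8 in cell 3 at 55.4 FPKM, Ngp in cell 26 at 501.2 and G0s2 in cell 27 at 65.7. The summed level over the list ran from 0 to 501.2 FPKM with a median of 0, and S100a9, Cxcr2, Camp, Ltf, Mmp8 and Lcn2 were listed at 0 in all cells. Il1b, Il1a and Il1rn were detected in none of those 3 cells, while cell 3 held Il18 and Casp1 and cell 26 held Nlrp3. Over all cells Il1b was detected in 8, Il1a in 1 and Il1rn in 4, so 3 cells are too few to set them apart from the markers. Of 13 monocyte markers, 3 (23.1%) were detected in at least 5 cells, near the 19.6% of all genes: F13a1 in 16, Ccr2 in 13 and Fcgr4 in 12. Their summed level, over the whole list, ran from 0.258 to 835.1 FPKM, Ly6c2 was detected in 1 cell, and Plac8, Hp and Chil3 were listed at 0. Cells 2, 12 and 24 held at least 3 monocyte markers. Cells 2 and 12 were 2 of the 4 with Il1rn, and cells 12 and 24 were 2 of the 8 with Il1b. Cells 2 and 24 were shallow, so that few fragments could pass 1 FPKM. The Il1b value in cell 24 was worth about 1 fragment, and Il1rn in cell 12 was 1.44 FPKM. No link of these genes with the monocyte markers is read from 3 cells. Of 10 dendritic cell markers Cd209a alone was detected, at 117.9 FPKM in cell 18, the highest for Il1b, 530.9 in cell 29, which held Il1rn, 2.24 in cell 24 and 1.41 in cell 33. The summed level of that list ran from 0 to 530.9 FPKM, and 5 of the 10 markers were listed at 0 in all cells. The part of monocytes or dendritic cells in the Il1b and Il1rn values was not tested.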

How the data were processed

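Per the labels, polyadenylated RNA of 37 single cells was made into libraries on the Fluidigm C1 with Nextera XT. The authors deposited FPKM for 23947 genes; per the submitters' processing notes, STAR, Cuffnorm and mm9 were used. The sources used here give no versions, annotation or strand, and only GRCm38 sequences were at hand. The fragments per cell are not in the table, so no count test was used. What 1 fragment was worth was estimated, over 666 pairs of cells (582 kept), from the commonest ratio of their values in the range of 0.005 to 20 FPKM. A simulation drew whole fragments at the depths estimated from these data, with 1 length for each gene. It checked the calculation and could not show whether the deposited values behave in this way. Rank correlations are Spearman's rho, on FPKM. Pearson's r used log2(FPKM + 1). Genes named as nearest were the 5 with the highest and the 3 with the lowest rho among genes detected in at least 5 cells; from each pathway list, up to 5 detected in most cells and all listed at 0 were named, and Casp4, P2rx7, the other inflammasome sensors with detection, Rhbdf2, Bcl3, Nfkbie, Cxcl10, Ptgs2 and Cd209a were added after their values were seen. The 8 genes and the lists were chosen with earlier results of these data known. All 103 pathway genes matched, Gsdme under its older symbol Dfna5. Intervals are exact and cover the sampling of cells, not animals. The upper limit for a count of 0 is approximate, taken as 3 counts over 37 cells. Detection thresholds, gene filters, pseudocounts, cells left out and cell ranges were varied. Python 3.11.15, numpy 2.4.6, pandas 2.3.3, scipy 1.17.1 and matplotlib 3.10.9 were used.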

Additional observations from a re-analysis of the deposited data

How the results depend on the processing

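Of 64 shares of cells recomputed under other settings, 59 stayed within the interval of the first value. At 0.1 FPKM the share was 48.6% for Il1b, 32.4% for Il18, 51.4% for Nlrp3 and 48.6% for Tnf, and Il1a was 0% in cells 0 to 19, which leave out cell 36. The median rho of the pairs was 0.13 in cells 20 to 36. Counts of genes at 0.5 or more changed most. With Pearson's r and a pseudocount of 1 or 0.1 they were 15 and 9 for Il1b (0 shared with the first count), 23 and 15 for Casp1, and 26 and 7 for Nlrp3. Among genes detected in at least 10 cells they were 4 for Casp1, 1 for Nlrp3, 7 for Pycard and 2 for Tnf, fewer since fewer genes entered; among genes above 0 in at least 2 cells Casp1 had 12. Without shallow cells they were 11 for Casp1, 8 for Nlrp3 and 33 for Pycard, without cells with fibroblast genes 15 for Casp1 and 7 for Tnf, and with equal FPKM sums 11 for Casp1. At 5 FPKM, 6 inflammasome partners were detected in at least 5 cells. Apart from the narrower gene filter, the cause was not tested. Of 224 pair values of rho, 74 moved by more than 0.1. The settings for cells with both genes, and for values worth 2.5 fragments or fewer, were chosen after seeing the data. No paired analysis was possible because the labels give 1 group. A single Il1b fragment was worth a median of 0.113 FPKM and up to 3.30. Detection at 1 FPKM therefore asked for more fragments in some cells than in others. Means without the highest cell, also chosen after seeing the data, stayed within 1 SD of the first value. That SD included the highest cell, so leaving out 1 cell could not move a mean that far, and the comparison decides nothing. The mean fell from 3.79 to 0.0153 FPKM for Il1a and from 24.9 to 3.93 for Il18. For Pycard it fell less, from 15.97 to 11.4 FPKM.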

Other observations

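Of 15 other cytokine genes of macrophages, 3 (20%) were detected in at least 5 cells, near the 19.6% of all genes. Il10, which encodes an anti-inflammatory cytokine, was detected in 9 cells, the same number as Tnf. It stood at 300.9 FPKM in cell 2, 204.5 in cell 17, 200.3 in cell 19, 158.5 in cell 20, 116.1 in cell 31 and 53.5 in cell 35, and under 10 FPKM in cells 13, 24 and 33. Cells 2, 17 and 31 also had Tnf detected. For a gene in 9 cells, such as Nlrp3, the product of the shares with Tnf is 2.19 cells. Cell 2, which had the highest FPKM of Il10, also had the highest of Il1rn, and it was a shallow cell with a large FPKM sum. Il6 was detected in 4 cells. Values were 443.1 FPKM in cell 29, 192.6 in cell 7, a cell with fibroblast genes, 8.72 in cell 8 and 1.83 in cell 13. In none of these was Il1b or Tnf detected. For a gene in 4 cells, such as Il1rn, the product of the shares is 0.865 cells with Il1b and 0.973 with Tnf. No separation of Il6 from Il1b or Tnf is therefore read from this. Il15 and Il16 were detected in 7 cells each. Il12a, Il12b, Il23a, Il27, Lif, Csf2, Csf3 and Ifnb1 were listed at 0 in every cell.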
